A study of Rattus norvegicus with 16 samples.

Results

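Supraspinatus muscle of Sprague Dawley rats was compared between 60 and 30 days after injury, with 4 RNA sequencing libraries at each time. Animals of both groups had received the same injury, a complete bilateral supraspinatus tear plus removal of a piece of the suprascapular nerve (neurectomy), so the groups differed in the time since surgery. The 8 libraries were taken by their labelled time out of 16 in the series. The other 8 came from unoperated muscle (0 days) and from muscle taken at 10 days, and they are used below for reference levels and for the estimate of spread. All 17147 genes listed were members of the comparison, of which 11658 had enough fragments to be tested. Each library title is a number with the letter L or R, and no number occurs with both letters. The letter was R for library 1 at 30 days and for libraries 1, 2 and 3 at 60 days. It was L for the others of these times, so it was not balanced between them. The labels give neither age nor sex, and they do not say whether the left and right muscle of 1 rat gave separate libraries. P-values therefore measure the spread between libraries, which may include muscles of the same animal.

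The supraspinatus lifts the arm and keeps the shoulder joint centred, and the suprascapular nerve is its motor supply. When a skeletal muscle loses its nerve, the fibres make acetylcholine receptors along their whole length, make the fetal gamma subunit again, and raise the myogenic factors Myog and Myod1. Torn and denervated rotator cuff muscle is also known for shrinking of its fibres and for fat that collects within and between them. Triacylglycerol in adipocytes is held in droplets coated by perilipin 1, whereas perilipin 2 coats droplets in many cell types, muscle fibres included.

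Library totals were smaller at 60 days, at 17.2 to 22.4 M fragments (M, mega), than at 30 days, at 22.9 to 39.9 M, with no overlap (two-sided exact permutation p 0.0286, the smallest 4 against 4 allows, and 0.0857 adjusted over 3 library measures). Depth and time therefore cannot be told apart by totals. After thinning all libraries to the smallest total, 2519 genes were called against 2636 at full depth. Levels are in CPM (counts per M fragments, after TMM scaling). The floor, taken as 3 fragments of a library, stood at 0.0752 to 0.131 CPM at 30 days and 0.134 to 0.175 at 60 days. The first principal component of the 8 libraries held 47.7% of the variance and separated the times. The second, with 15.6%, was led by library 1 at 60 days. Of the defining markers of skeletal muscle, skeletal actin Acta1 was at 20743 to 34209 CPM at 30 days and 33608 to 50033 at 60 days, and muscle creatine kinase Ckm was at 8352 to 19436 and 17237 to 21667 CPM. Neither passed the test between the times (0.47 and 0.46, adjusted p 0.055 and 0.081), but both were called higher without library 3 at 30 days (adjusted p 0.0226 and 0.0164) and with DESeq2 (0.0116 and 0.0322). Acta1 was also called with RLE factors (0.0448), upper-quartile factors (0.0452), limma-voom (0.0473), a minimum mean of 1 CPM (0.0480) and the title letter as a covariate (0.0411), and Ckm with that letter (0.0413). In whole muscle, fewer cells of a type and less RNA per cell cannot be told apart.

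Between 30 and 60 days, receptor and denervation genes fell by up to 33.0-fold, adipocyte and Schwann cell genes rose, and genes of glycolysis and the respiratory chain rose by smaller amounts. Calls were made at an adjusted p below 0.05 in edgeR's quasi-likelihood test with Benjamini-Hochberg adjustment over all genes tested. By that rule 22.6% of genes were called, with 10.3% higher and 12.4% lower at 60 days, which is 1195 and 1441 genes. Counts of called genes in the lists below are to be read beside these shares. An estimated change of 2-fold or more was found for 165 of the higher and 303 of the lower genes, and one of 4-fold or more for 22 and 94. Over every gene tested, log2 fold changes had a median of -0.01. With library totals in place of TMM factors, 26.3% of the called genes were higher in place of 45.3%, and that median was -0.09. Fold changes are therefore relative to the bulk of genes.

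**Figure D1:**
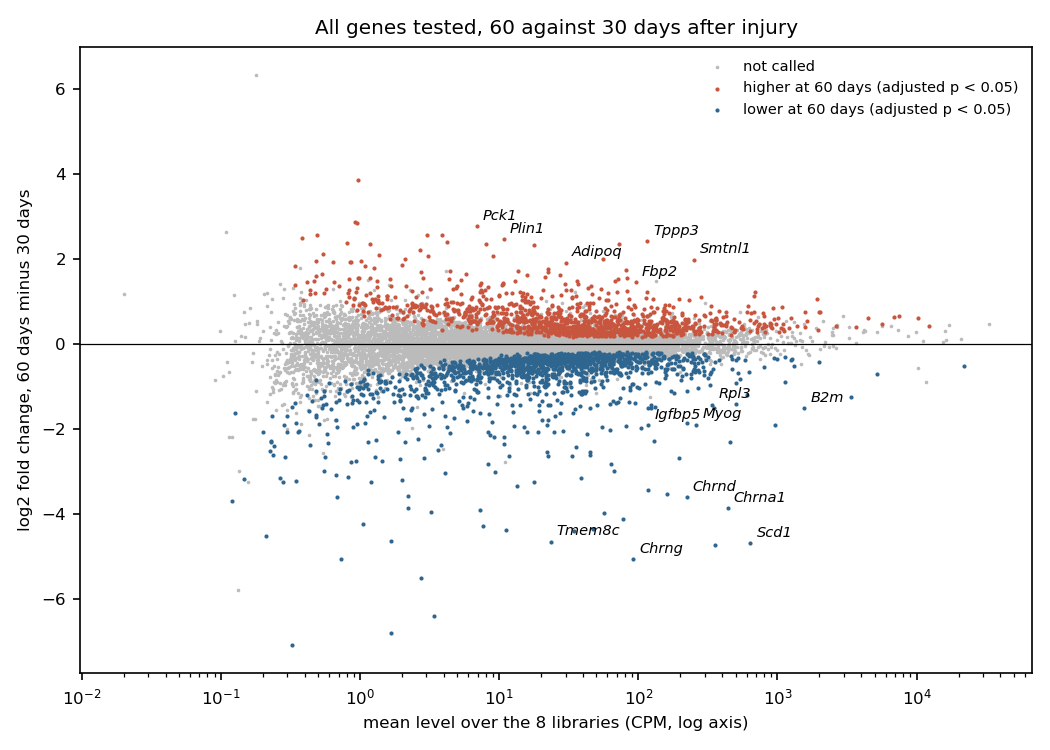
Each point is 1 of 11658 genes, with its mean level over the 8 libraries on the x axis (CPM, log axis) and its log2 fold change, 60 days minus 30 days, on the y axis. Red points were called higher, blue points lower and grey points not called. The falls reach farther from 0 than the rises among genes above 10 CPM, where Chrng (-5.05) and Scd1 (-4.67) lie lowest of the labelled genes.

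Subunits of the muscle acetylcholine receptor were among the largest falls of genes with a mean of at least 5 CPM. Chrng, the fetal gamma subunit, was at 372, 77.1, 71.8 and 195 CPM in the 4 libraries at 30 days and at 6.64, 4.71, 2.75 and 7.24 at 60 days. Every 60-day library lay far below the lowest 30-day one, and library 1 at 30 days was the highest. The log2 fold change was -5.05 ± 0.49 (SE, n = 4 and 4, edgeR adjusted p 8.2e-06), and it was -4.40 without that library. Chrna1, the alpha subunit that binds acetylcholine, went from 1161, 616, 465 and 1031 CPM to 91.6, 51.3, 26.5 and 57.5, without overlap (log2 fold change -3.85 ± 0.35, adjusted p 4.9e-06). Chrnd, the delta subunit, went from 664, 281, 283 and 415 to 38.5, 40.8, 22.8 and 33.2 CPM, again without overlap (-3.60 ± 0.28, adjusted p 8.8e-07). The beta subunit Chrnb1 fell less, from 174 to 295 CPM to 85.3 to 136 (-1.10 ± 0.16, adjusted p 0.0003). For Chrne, the adult epsilon subunit, the groups overlapped, at 49.8 to 106 and 37.1 to 66.7 CPM, and the difference did not pass the test (-0.55 ± 0.23, adjusted p 0.095). It did pass without library 3 at 30 days (-0.69, 0.0349) and with the title letter as a covariate (-0.68, 0.0328).

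Musk, the kinase that gathers receptors under the nerve ending, was at 20.5, 16.2, 13.2 and 23.0 CPM at 30 days and at 3.50, 3.37, 2.81 and 4.53 at 60 days. The groups did not overlap, and the log2 fold change was -2.35 ± 0.23 (adjusted p 7.0e-06). Of the 16 genes of receptor and synapse, all of them tested, 6 were lower and 3 higher, with a median log2 fold change of -0.15. The 3 higher ones were Colq, which anchors acetylcholinesterase (0.75), Etv5, a transcription factor of the synaptic nuclei (0.44), and Utrn, which links the synaptic membrane to actin (0.42). Each of these calls was lost when single libraries were left out. Adjusted p-values were then 0.0551 to 0.105 for Colq (libraries 1, 2 and 3 at 30 days, 1 and 2 at 60 days), 0.0665 to 0.114 for Etv5 (2 and 3 at 30 days, 2 and 4 at 60 days) and 0.0506 to 0.0534 for Utrn (3 and 4 at 30 days, 4 at 60 days). The list gave 1 higher without library 3 at 30 days or 2 at 60 days, and its median turned positive, 0.04, without library 1 at 30 days.

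Promoters are shown for Chrna1, Chrng and Musk, chosen because these genes fell and their promoters hold a word that myogenic factors can bind. The part of this word in the falls was not tested. The runs, from RefSeq on the rat assembly GRCr8, cover 250 bases before to 50 after the gene start, read 5′ to 3′ along the gene's strand. Capitals mark CAGCTG, an E-box word that reads the same on both strands.
Chrna1, chr3:78877304-78877603, minus strand: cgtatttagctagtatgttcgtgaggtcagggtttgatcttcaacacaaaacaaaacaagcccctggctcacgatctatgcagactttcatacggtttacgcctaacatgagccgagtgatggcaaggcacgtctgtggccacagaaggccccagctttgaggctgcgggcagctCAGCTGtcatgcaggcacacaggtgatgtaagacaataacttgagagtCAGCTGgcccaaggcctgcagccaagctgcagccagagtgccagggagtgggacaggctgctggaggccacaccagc
Chrng, chr9:95325734-95326033, plus strand: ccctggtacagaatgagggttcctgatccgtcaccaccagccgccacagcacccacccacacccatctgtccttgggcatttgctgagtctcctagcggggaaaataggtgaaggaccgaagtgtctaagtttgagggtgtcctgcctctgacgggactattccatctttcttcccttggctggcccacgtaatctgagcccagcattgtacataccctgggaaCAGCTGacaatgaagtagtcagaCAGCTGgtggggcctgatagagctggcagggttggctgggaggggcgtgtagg
Musk, chr5:77853486-77853785, plus strand: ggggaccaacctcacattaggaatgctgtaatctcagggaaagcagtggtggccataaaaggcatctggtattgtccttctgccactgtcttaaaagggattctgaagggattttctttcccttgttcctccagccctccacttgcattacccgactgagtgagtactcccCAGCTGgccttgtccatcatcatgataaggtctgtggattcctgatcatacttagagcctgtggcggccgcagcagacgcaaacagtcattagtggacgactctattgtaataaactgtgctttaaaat
Chrna1 and Chrng hold 2 copies each and Musk holds 1. Among the 16 genes of receptor and synapse, 11 matched a RefSeq promoter and 6 of these (54.5%) held the word, against 15.1% of all 27457 promoters. The other 3 were Chrnb1, Chrne and Etv5. Chrne was not called and Etv5 was higher, and the window of Chrnd, which fell, did not hold these letters. A match is a description of letters and not a measured site.

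Genes of the denervation response fell as well. Of 20 tested, 14 were lower and 0 higher, with a median of -1.43 against -0.01 for all genes. Myog, a myogenic transcription factor, went from 505, 341, 379 and 420 CPM at 30 days to 135, 116, 85.8 and 107 at 60 days (log2 fold change -1.89 ± 0.15, adjusted p 6.7e-07). The 2 times did not overlap. Myod1, another such factor, went from 272, 152, 135 and 155 to 108, 43.6, 45.0 and 69.4 CPM (-1.42 ± 0.28, adjusted p 0.0025). Library 1 was the highest of its group at both times, and the groups stayed apart.

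The growth arrest gene Gadd45a fell from 534 to 1149 CPM to 137 to 176 (-2.29 ± 0.22, adjusted p 7.8e-06). The cell adhesion molecule Ncam1 fell from 95.7 to 160 CPM to 20.6 to 55.8 (-1.93 ± 0.26, adjusted p 0.00014). The transcription factor Runx1 went from 83.3, 72.2, 55.4 and 97.8 CPM to 27.9, 9.31, 6.55 and 9.29 (-2.53 ± 0.37, adjusted p 0.0003). Library 1 at 60 days stood above the other 3 for Runx1, and the fall was -3.20 without it. Cardiac actin Actc1, expressed in fetal and regenerating fibres, went from 489, 120, 185 and 390 to 17.3, 23.6, 29.0 and 32.9 CPM (-3.53 ± 0.43, adjusted p 6.4e-05). Sarcolipin Sln, which regulates the calcium pump, fell by 0.64 ± 0.14 on the log2 scale (adjusted p 0.0040) and remained at 411 to 552 CPM at 60 days, against 8.60 ± 1.27 (SD, n = 4) in unoperated muscle. Ankrd1, a stretch-responsive protein of the sarcomere, did not pass the test (-0.07 ± 0.48, adjusted p 0.94). Its level in library 1 at 60 days was 3624 CPM and 545 to 927 in the other 3, and without that library it was called lower (-1.05, adjusted p 0.0292).

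Compared with unoperated muscle, the levels at 60 days differed from gene to gene. The fit placed Chrnd 0.36 (log2) from 0 days with an adjusted p of 0.24 and Myod1 0.16 with one of 0.64, so neither passed the test. Chrna1 was still higher by 1.63, Chrng by 2.54, Gadd45a by 2.68 and Myog by 2.22, all past the threshold. Comparisons with 0 days and with 30 days share the 60-day libraries. Those with 0 days, here and below, were fitted with TMM factors only. These factors were 0.750 to 0.775 at 0 days and 0.969 to 1.07 at 60 days. Changes from 0 to 60 days therefore lie lower than they would with library totals, and their calls under other factors were not tested.

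**Figure D2:**
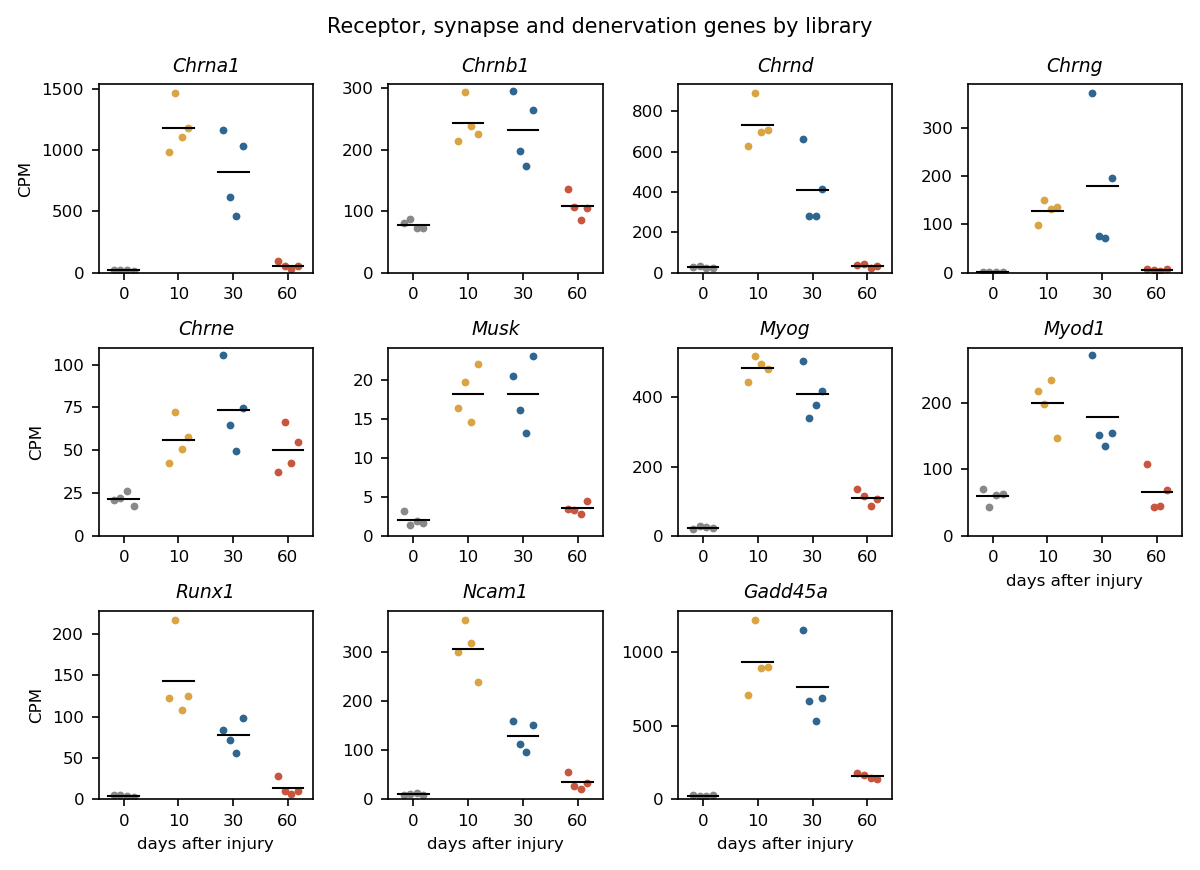
Level in every library (CPM, linear axis from 0) of 11 receptor, synapse and denervation genes by days after injury, with 4 libraries a time as points and the group mean as a line. For Chrna1, Chrnd, Chrng and Musk all 60-day points lie below all 30-day points, whereas the Chrne points of both times overlap.

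The lipid genes Scd1 and Plin2 fell. Scd1, which makes monounsaturated fatty acids, was at 1876, 957, 872 and 1194 CPM at 30 days and 69.7, 45.8, 25.2 and 51.2 at 60 days. The lowest 30-day library was thus still far above the highest 60-day one (log2 fold change -4.67 ± 0.31). Plin2, the perilipin of many cell types, went from 176, 134, 124 and 235 to 49.3, 39.8, 39.5 and 43.5 CPM (-1.96 ± 0.19, adjusted p 8.2e-06). Their pathways held calls in both directions, as did all genes tested, of which 10.3% were higher and 12.4% lower. Calls in both directions alone therefore do not set these lists apart, and the lists were not tested against those shares. Among 17 tested genes of fatty acid synthesis and desaturation 3 were higher and 3 lower, with a median of 0.06, and among 20 of triacylglycerol synthesis and breakdown 7 were higher and 3 lower, with a median of 0.24. The first median was -0.13 without library 4 at 60 days and -0.02 with library totals. Fitting the 8 libraries alone left 2 and 2 of the triacylglycerol genes.

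Fasn, which builds palmitate, rose from 14, 13.5, 13.4 and 13 CPM to 18.4, 20.1, 21.4 and 29.5 (0.73 ± 0.17, adjusted p 0.0058). The 30-day libraries lay close together and all 60-day ones lay above them. Mlxipl, a glucose-responsive activator of lipid synthesis, rose by 0.87 ± 0.16 (adjusted p 0.0016), and malic enzyme Me1 by 0.32 ± 0.10 (adjusted p 0.025). The call of Me1 was lost without library 1 or 4 at 30 days or 1 or 2 at 60 days (adjusted p 0.0592 to 0.0864). Acacb, which makes the malonyl-CoA that restrains fatty acid oxidation, fell from 288 to 359 CPM to 165 to 226 (-0.64 ± 0.11, adjusted p 0.00082), and the desaturase family member Fads3 fell by 0.63 ± 0.16 (adjusted p 0.010). Srebf1, a master activator of lipid synthesis, did not pass the test (-0.56 ± 0.20, adjusted p 0.051), with 299 CPM in library 3 at 30 days and 113 to 177 in the other 7. It was called lower without library 2 or 4 at 30 days (0.0498 and 0.0310) and with library totals (0.0198). The same held with DESeq2 (0.0318), without robust estimation (0.0455) and with a replicate block over 16 libraries (0.0116).

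Among genes of triacylglycerol breakdown, the hormone-sensitive lipase Lipe rose from 17.6 to 29.7 CPM to 34.0 to 50.4 (0.88 ± 0.16, adjusted p 0.0016). Mogat1, an acyltransferase of triacylglycerol synthesis, rose by 1.35 ± 0.35 (adjusted p 0.012), with 3.80 CPM in library 3 at 60 days and 1.24 to 1.34 in the other 3. Without that library it was 0.80 with an adjusted p of 0.0541. Dgat1 and Dgat2, which complete triacylglycerol, did not pass the test (0.04 and 0.53, adjusted p 0.74 and 0.070). Dgat2 was called higher without library 2 at 30 days or 1 at 60 days (adjusted p 0.0427 and 0.0394). It was also called with the title letter as a covariate (0.0071), with DESeq2 (0.0316) and with a replicate block (0.0482 with 16 libraries, 0.0392 with 8). Lpin2, a phosphatidate phosphatase, fell by 0.62 ± 0.15 (adjusted p 0.0075). The lipase gene Pnpla2 is listed at 0 in every library, which can be a failed estimate.

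Cholesterol synthesis and uptake showed 6 lower and 1 higher of 23 tested, with a median of -0.08. That is 26.1% lower and 4.35% higher, against 12.4% and 10.3% of all genes. The lower count was 4 without library 1, 2 or 4 at 30 days or 2 or 3 at 60 days, and with the 8 libraries alone. Without library 1 at 60 days 3 were higher. Lanosterol synthase Lss went from 11.7, 9.05, 9.72 and 13 CPM to 6.13, 5.38, 6.14 and 6.31 (-0.85 ± 0.14, adjusted p 0.00055), without overlap. Fdft1, squalene synthase, moved the other way, from 46.3 to 62.9 CPM to 84.8 to 95.0 (0.69 ± 0.10, adjusted p 0.00023). Squalene epoxidase Sqle did not pass the test (-0.23, adjusted p 0.39). The sterol element TCACNCCAC was found on either strand of 1.13% of all promoters and in 0 of 15 and 0 of 16 matched promoters of the fatty acid and cholesterol lists, which says only that these letters are not in those windows.

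Adipocyte genes rose. Of 19 tested, 14 were higher and 0 lower, with a median of 1.41 against -0.01 for all genes. The 60-day libraries lay above all 30-day ones for 15 of them, against 8.87% of all genes tested. Plin1, the perilipin of adipocytes, was at 2.91, 4.80, 3.72 and 1.57 CPM at 30 days and at 15.4, 8.41, 27.6 and 21.6 at 60 days. Cidec, which enlarges lipid droplets, was at 1.70, 4.08, 2.92 and 1.49 and then at 8.07, 8.86, 17.2 and 19.4 CPM. Their levels in libraries 3 and 4 at 60 days were the highest of all 8.

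The hormone adiponectin, Adipoq, went from 10.3, 17.5, 13.9 and 8.0 CPM to 33.4, 30.3, 66.5 and 59.6 (1.92 ± 0.42, adjusted p 0.0044). The hormone leptin, Lep, went from 0.815, 1.42, 0.680 and 0.483 to 3.32, 2.08, 7.31 and 8.22 CPM (2.56 ± 0.51, adjusted p 0.0023). Neither overlapped between the times, and libraries 3 and 4 at 60 days were again the highest. Pparg, the master regulator of adipocyte formation, rose from 2.05 to 3.56 CPM to 4.15 to 7.25 (0.97 ± 0.21, adjusted p 0.0041), and some of its fragments were shared out between genes. Fabp4, the fatty acid carrier of adipocytes, endothelium and macrophages, went from 111, 129, 144 and 114 to 143, 243, 263 and 261 CPM (0.87 ± 0.19, adjusted p 0.0041). Library 1 at 60 days lay within the 30-day range for Fabp4. Cebpa, a partner of Pparg, was at 6.23 to 7.16 CPM and 7.91 to 12.8 and did not pass the test (0.64 ± 0.27, adjusted p 0.094, and 0.0373 with the 8 libraries alone).

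Pck1, which makes glycerol for triacylglycerol in adipocytes, was at 2.13, 2.40, 1.36 and 0.965 CPM and then at 7.70, 6.23, 20.6 and 13.9, without overlap. The beta-3 adrenergic receptor Adrb3, named after its values were seen since its mean is under 1 CPM, went from 0.177, 0.451, 0.200 and 0 CPM to 0.876, 0.673, 2.51 and 2.67 (2.85 ± 0.79, adjusted p 0.017). Its call was lost without library 1 at 30 days (2.76, adjusted p 0.0502), and without library 2 at 30 days its log2 fold change was 3.67. Against unoperated muscle, Adipoq was higher at 60 days by 2.05 ± 0.42 (adjusted p 0.00073), Lep by 1.92 and Cidec by 1.85. Pparg and Fabp4 did not pass that test (0.35 and 0.33, adjusted p 0.16 and 0.14). Of 4 brown adipocyte genes tested 1 was lower, and the defining gene Ucp1 was at 0 to 0.117 CPM and too low to test. The 1 that fell was Cidea, which is abundant in brown fat, from 10.1 to 16.9 CPM to 7.25 to 8.62 (-0.78 ± 0.20, adjusted p 0.011).

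Schwann cell and nerve genes rose alongside, with 8 higher and 1 lower of 22 tested and a median of 0.47. Mbp, a myelin protein, was at 20.4, 17.2, 15.4 and 11.3 CPM at 30 days and at 26.7, 32.1, 63.8 and 49.5 at 60 days (1.41 ± 0.28, adjusted p 0.0022). Libraries 3 and 4 at 60 days held its highest levels, the same libraries as for Plin1, Cidec, Adipoq and Lep. Summed levels of the Schwann and nerve list were 184 to 261 CPM at 30 days and 261 to 426 at 60 days, and those of the adipocyte list were 3122 to 3979 and 3005 to 6571 CPM. Most of the adipocyte sum lay in members other than the adipocyte genes described above. Of those described, Fabp4 was the highest, at 143 to 263 CPM at 60 days. The part of the nerve genes in the adipocyte result, and the reverse, was not tested. Prx, which stabilises myelin, went from 7.30 to 10.1 CPM to 14.4 to 24.8 without overlap (1.23 ± 0.18, adjusted p 0.00027).

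The list's count depended on single libraries, with 3 higher without library 4 at 30 days or library 3 at 60 days, 4 without library 4 at 60 days and 5 without library 1 or 2 at 30 days. The call of S100b, a Schwann cell calcium sensor (1.00 ± 0.29, adjusted p 0.021), was lost without library 4 at 30 days or 3 or 4 at 60 days (adjusted p 0.0541 to 0.0773). The 1 gene that fell, Gdnf, a survival factor for motor neurons, was named after its values were seen since its mean is under 1 CPM. It was at 1.06, 0.522, 0.600 and 1.61 CPM and then at 0.369, 0.112, 0.0585 and 0.267, with libraries 2 and 3 at 60 days below the floor (-2.11 ± 0.50, adjusted p 0.0065).

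**Figure D3:**
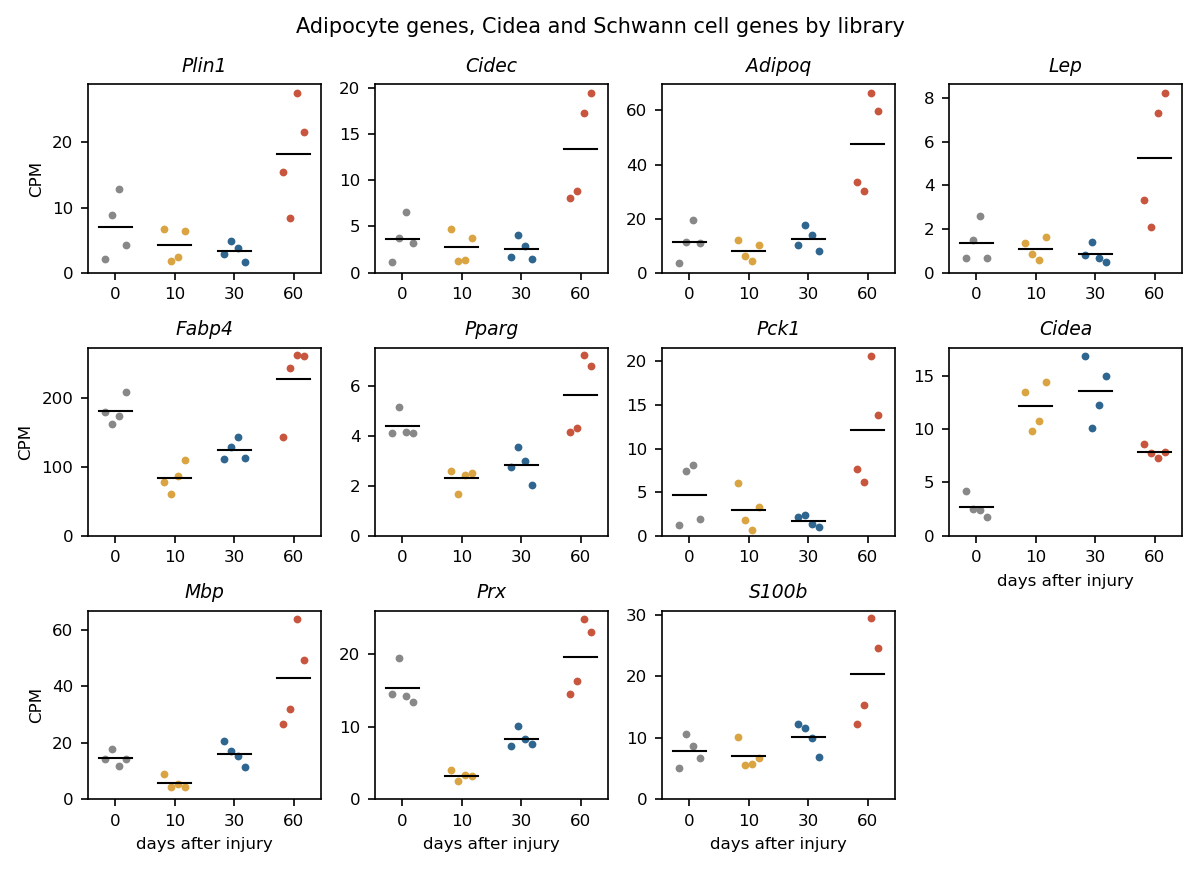
Level in every library (CPM, linear axis from 0) of adipocyte genes, Cidea and Schwann cell genes by days after injury, with 4 libraries a time as points and the group mean as a line. Libraries 3 and 4 at 60 days, the points on the right of each 60-day group, are the highest for Plin1, Adipoq and Mbp, and Cidea is lower at 60 than at 30 days.

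Endothelial genes gave 7 higher and 0 lower of 17 tested, with a median of 0.40. Flt1, a receptor for vascular endothelial growth factor, went from 20.02, 21.2, 20.3 and 19.4 CPM to 34.2, 48.8, 28.5 and 31.4 (0.82 ± 0.12, adjusted p 0.00023). The growth factor Vegfa, which muscle fibres make, went from 397, 545, 616 and 465 to 645, 1134, 881 and 748 CPM (0.75 ± 0.16, adjusted p 0.0031), and the angiopoietin receptor Tek rose by 0.54 ± 0.11 (adjusted p 0.0034). All 3 were without overlap. Pecam1 (0.48) and Cdh5 (0.53), junction proteins of endothelium, were called with adjusted p-values of 0.031 and 0.030. The call of Pecam1 was lost without any 1 of libraries 1, 3 and 4 at 30 days and 2, 3 and 4 at 60 days (0.0502 to 0.0993). That of Cdh5 was lost without 1, 2 or 4 at 30 days or 2 or 4 at 60 days (0.0655 to 0.0969). The count of higher genes was 3 without library 1 or 4 at 30 days or 2 at 60 days or with library totals, 4 without library 4 at 60 days, and 12 without library 1 at 60 days.

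Genes of glycolysis and the respiratory chain rose by small amounts. Of 24 glycolysis and glycogen genes 11 were higher and 0 lower (median 0.41). Of 78 respiratory chain genes 28 were higher and 0 lower (median 0.30), of 18 citric acid cycle genes 5 and 0 (0.18), and of 24 fatty acid oxidation genes 2 and 0 (0.13), which is 8.33% higher against 10.3% of all genes. Markers of skeletal muscle fibres moved with them, with 3 of 10 higher, 0 lower, 9 positive and a median of 0.45. Summed fibre marker levels were 68961 to 113730 CPM at 30 days and 108296 to 126606 at 60 days, and their part in the metabolic result was not tested. Of the fibre markers, the Z-disc protein Myoz1 rose by 0.76 ± 0.18 (adjusted p 0.0067). Pfkm, the rate-setting phosphofructokinase, went from 1043, 1731, 1798 and 1314 CPM to 1948, 2773, 3062 and 2122 (0.75 ± 0.17, adjusted p 0.0048). Gpi, which acts just before it, went from 416, 699, 770 and 490 to 813, 1111, 1174 and 861 CPM (0.74 ± 0.17, adjusted p 0.0058). The electron carrier cytochrome c, Cycs, went from 585, 883, 852 and 662 to 1004, 1279, 1242 and 1010 CPM (0.60 ± 0.14, adjusted p 0.0056). In these 3 genes libraries 1 and 4 were the lowest at both times and the times did not overlap. Against unoperated muscle Cycs stayed lower at 60 days, by 0.67 ± 0.14 on the log2 scale (adjusted p 0.00061).

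Fbp2, the muscle fructose bisphosphatase, was at 15.3, 69.7, 83.5 and 34.9 CPM and then at 82.0, 165, 202 and 113, with 1 library of 60 days inside the 30-day range (1.47 ± 0.42, adjusted p 0.021). Its call was lost without library 4 at 30 days or 2 or 3 at 60 days (adjusted p 0.0565 to 0.0670). The glycogen phosphorylase Pygm rose by 0.62 ± 0.18 (adjusted p 0.018), a call lost without library 4 at 30 days or 3 at 60 days (0.0585 and 0.0647). Cytosolic malate dehydrogenase Mdh1 rose by 0.63 ± 0.19 (adjusted p 0.024), a call lost without library 1 or 4 at 30 days or 2 or 3 at 60 days (0.0697 to 0.0768). Citrate synthase Cs, which opens the cycle, did not pass the test (-0.08, adjusted p 0.67), nor did Cpt1b, which admits fatty acids to mitochondria (0.14, 0.26, but 0.0454 without library 4 at 60 days), Acadm, a fatty acyl dehydrogenase (0.35, 0.12, but 0.0139 without library 2 at 30 days and 0.0495 with the title letter as a covariate), or Ppargc1a, a coactivator of mitochondrial genes (0.16, 0.53).

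The metabolic counts depended on the fit. With the 8 libraries alone, 3 respiratory chain and 3 glycolysis genes were called higher, and 0 of the citric acid cycle. Leaving out single libraries gave 11 to 50 respiratory chain genes, with 11 or 12 without library 1 or 4 at 30 days or 2 or 3 at 60 days, 48 without library 3 at 30 days and 50 without library 1 at 60 days. It gave 4 to 16 glycolysis genes, with 4 without library 4 at 30 days, 5 without library 2 or 3 at 60 days, 7 without library 1 at 30 days and 16 without library 3 at 30 days. It gave 0 citric acid cycle genes without library 1 or 4 at 30 days or 2 or 3 at 60 days. For fatty acid oxidation it gave 0 without those same 4 libraries, and library totals gave 0 higher and 1 lower. Medians over the single omissions were 0.23 to 0.40 for the respiratory chain, 0.29 to 0.56 for glycolysis, 0.12 to 0.27 for the citric acid cycle, 0.02 to 0.21 for fatty acid oxidation and 0.30 to 0.52 for the fibre markers, which gave 0.16 without library 1 of both times.

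Of 8 myosin heavy chains 1 was higher and 1 lower, with a median of 0.35. Myh2, the chain of fast oxidative IIa fibres, went from 5314, 6835, 6198 and 4660 CPM to 9373, 8127, 9880 and 9184 without overlap (0.67 ± 0.23, adjusted p 0.046). That call was lost without any single library other than library 2 at 30 days (adjusted p 0.0617 to 0.126). Myh4, the chain of the fastest IIb fibres, did not pass the test (-0.55 ± 0.22, adjusted p 0.078). It was called lower without library 3 at 60 days (0.0368), with library totals (0.0438) and with DESeq2 (0.0464). A replicate block also gave a call (0.0414 with 16 libraries, 0.0436 with 8). At 60 days Myh4 was lower than in unoperated muscle by 2.47 on the log2 scale. Myh1 of IIx fibres (0.32, 0.24), Myh7 of slow fibres (0.55, 0.19) and the embryonic Myh3 (-0.13, 0.82) did not pass the test either. The perinatal chain Myh8 fell by 1.01 ± 0.30 (adjusted p 0.026) from 212, 98.6, 108 and 108 CPM to 97.8, 47.4, 54.5 and 60.5, a call lost without library 1 at 30 days or 2, 3 or 4 at 60 days (0.0636 to 0.117). Pvalb, the calcium buffer of fast fibres, fell from 5943, 5927, 6837 and 6791 to 4373, 3904, 3288 and 4278 CPM (-0.69 ± 0.13, adjusted p 0.0015). Nrap, which helps to assemble myofibrils, rose from 963 to 1302 CPM to 1612 to 2618 (0.75 ± 0.15, adjusted p 0.0019).

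Of 13 atrophy ubiquitin ligases tested 2 were higher and 4 lower, with a median of -0.04. The higher count was 0 without library 1 at 30 days and 1 without library 3 or 4 at 30 days or 1 at 60 days, and the median was 0.02 without library 4 at 60 days. Fbxo32 (atrogin-1) and Trim63 (MuRF1), the best known of them, did not pass the test (each -0.03 ± 0.24, adjusted p 0.94), at 13.9 to 21.3 and 10.9 to 27.6 CPM for Fbxo32. Fbxo31 went from 241, 176, 158 and 205 CPM to 88.6, 69.0, 59.1 and 62.1 (-1.48 ± 0.15, adjusted p 7.8e-06). Fbxo30 fell by 0.94 ± 0.15 (adjusted p 0.00045), and Nedd4 from 1235 to 1779 CPM to 754 to 867 (-0.88 ± 0.11, adjusted p 8.2e-05). These 3 genes did not overlap between the times. Of 39 proteasome genes 4 were higher (10.3%, against 10.3% of all genes) and 2 lower (5.13%, against 12.4%), with a median of 0.02. Library totals turned this to 1 higher and 9 lower with a median of -0.07, and the 8 libraries alone gave 0 higher and 1 lower. The higher count was 1 without library 1 at 30 days or 2 or 3 at 60 days, and 2 without library 2 at 30 days.

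Among ribosomal protein genes, Rpl3 and its muscle-restricted paralog Rpl3l moved in opposite directions. Rpl3 went from 671, 313, 374 and 627 CPM to 164, 171, 181 and 226 (-1.42 ± 0.20, adjusted p 0.00018), and Rpl3l from 321, 595, 631 and 378 to 847, 723, 833 and 793 (0.73 ± 0.18, adjusted p 0.0078). At 30 days the 2 libraries highest in Rpl3, 1 and 4, were the lowest in Rpl3l. Of 75 cytosolic ribosomal protein genes 11 were lower, which is 14.7% against 12.4% of all genes. Rpl3l was the 1 called higher, and the median was -0.12. Rps21 (-0.54) and Rpl41 (-0.53) were among those that fell. Without library 2 at 30 days 23 were lower, with library totals 21, and with the 8 libraries alone 3.

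**Figure D4:**
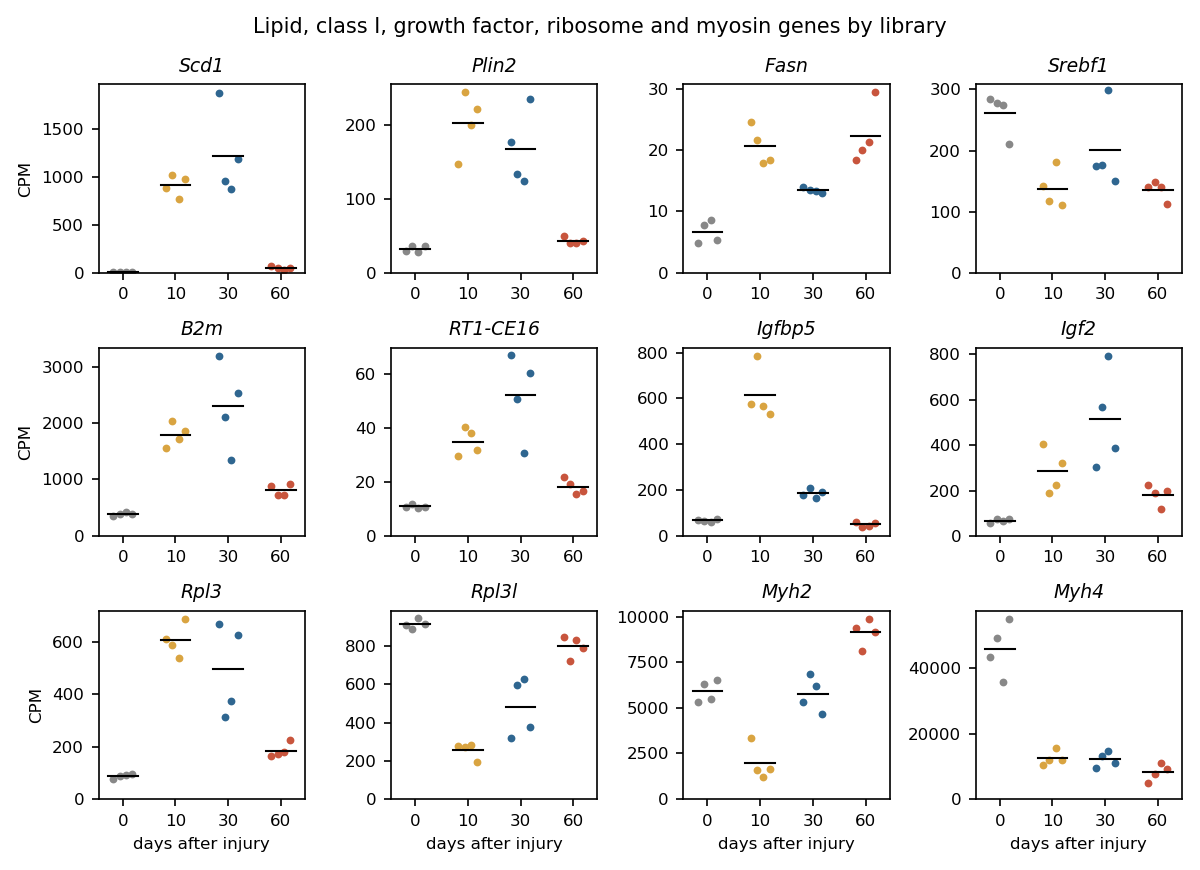
Level in every library (CPM, linear axis from 0) of 12 lipid, antigen presentation, growth factor, ribosomal and myosin genes by days after injury, with 4 libraries a time as points and the group mean as a line. Scd1, Plin2, B2m, Igfbp5 and Rpl3 are lower in all 4 libraries at 60 days than at 30 days, and Fasn, Rpl3l and Myh2 are higher in all 4.

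Genes of muscle stem cells and fusion gave 3 higher and 4 lower of 17. That is 17.6% and 23.5%, against 10.3% and 12.4% of all genes. They gave 1 higher and 4 lower without library 1 or 4 at 30 days, and 1 higher and 6 lower with library totals. Tmem8c, the fusion protein myomaker, went from 75.2, 30.5, 20.7 and 53.6 CPM to 1.52, 1.12, 1.70 and 2.76 (-4.64 ± 0.40, adjusted p 2.5e-06), without overlap. Pax7, which marks satellite cells, was at 0.248, 0.855, 0.600 and 0.603 CPM and then at 2.35, 0.953, 0.643 and 0.978, with overlap between the times (1.08 ± 0.38, adjusted p 0.049). Its call was lost without library 1, 3 or 4 at 30 days or 1 or 2 at 60 days (adjusted p 0.0583 to 0.245).

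Of 21 growth hormone, insulin-like growth factor (IGF) and TGF-beta family genes 6 were lower and 3 higher. Without library 2 at 60 days 3 were lower and 4 higher. Igfbp5, a binding protein for these factors, went from 177, 209, 167 and 191 CPM to 59.1, 39.5, 43.8 and 57.5 (-1.89 ± 0.14, adjusted p 5.4e-07). The fetal growth factor Igf2 went from 304, 568, 793 and 389 to 224, 189, 116 and 200 CPM (-1.49 ± 0.29, adjusted p 0.0022). Both were without overlap. Igf1 did not pass the test (0.05 ± 0.17, adjusted p 0.86). With TMM factors, Igfbp5 at 60 days was below unoperated muscle, by 0.43 on the log2 scale (adjusted p 0.014), whereas Igf2 was above it by 1.43 (0.00064). TMM scaling lowers levels at 60 days relative to 0 days, and whether Igfbp5 is lower with library totals was not tested.

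Antigen presentation genes fell, with 14 lower and 0 higher of 43 tested and a median of -0.53. B2m, the light chain of class I molecules, went from 3195, 2108, 1351 and 2538 CPM to 879, 724, 723 and 917 (-1.50 ± 0.19, adjusted p 7.4e-05). The class I genes RT1-A3 (-1.91), RT1-CE15 (-1.64) and RT1-CE16 (-1.51) fell too. The near-identical RT1 copies share fragments, so the level of any single copy is uncertain. Cd74, the class II invariant chain, did not pass the test (-0.28, adjusted p 0.26), though it did without library 4 at 60 days (-0.45, 0.0483). Of 23 macrophage and monocyte genes 1 was higher, the hyaluronan receptor Lyve1 (0.60), and 0 were lower. The call of Lyve1 was lost without library 3 at 60 days (adjusted p 0.0512). The macrophage genes Cd68 (-0.05, adjusted p 0.94), Emr1 (-0.23, 0.54) and Csf1r (-0.28, 0.30) did not pass the test, and summed macrophage levels were 328 to 387 CPM at 30 days and 270 to 482 at 60 days. Without library 4 at 60 days 3 macrophage genes were lower, Csf1r among them (-0.51, 0.0198).

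Of the markers of T, B and NK lymphocytes, all 11 tested had a negative log2 fold change, with a median of -0.61. By edgeR 0 were called, 4 had an unadjusted p under 0.05, and 1 was called with library totals or with the 8 libraries alone. Their summed levels were 36.0, 37.2, 27.4 and 29.6 CPM at 30 days and 21.4, 17, 19.6 and 38.6 at 60 days. Libraries 1, 2 and 3 at 60 days lay below the 30-day range and library 4 above it. Leaving out library 4, 3 genes were called lower and the median was -0.86. The part of these cells in the antigen presentation result was not tested.

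Of 25 collagen chains 2 were higher, which is 8.0% against 10.3% of all genes, and 0 lower, with a median of 0.19. The 2 were Col5a3 (1.14 ± 0.29, adjusted p 0.011) and the basement membrane chain Col4a3 (0.69 ± 0.22, 0.032). The call of Col4a3 was lost without library 2, 3 or 4 at 30 days or 2 or 4 at 60 days (0.0612 to 0.129), and that of Col5a3 without library 1 of both times (1.04, 0.0603). The fibro-adipogenic progenitor marker Pdgfra did not pass the test (0.11, adjusted p 0.69). Of 15 genes in the list of fibroblasts and these progenitors 1 was higher and 1 lower, 11 were positive and the median was 0.36. Their summed levels were 1196 to 1397 CPM at 30 days and 1655, 1550, 2121 and 2526 at 60 days, without overlap and highest in libraries 3 and 4. Those libraries were also the highest for Plin1, Cidec, Adipoq, Lep and Mbp. The summed adipocyte list instead was highest in library 1 at 60 days (6571 CPM) and lowest in library 4 (3005). Most of that sum lay in members other than the adipocyte genes described above, so it does not follow those markers. Most of the fibroblast and progenitor sum was the actin-severing protein Gsn, the 1 called higher (0.88 ± 0.17, adjusted p 0.0021), at 677 to 896 and 1133 to 1768 CPM. The calcium-binding S100a4 was the 1 called lower (-1.02 ± 0.26, adjusted p 0.011), a call lost with the 8 libraries alone (0.0580) and without library 1 of both times (0.0935). Of the inhibitors of matrix proteases, Timp3 rose from 38.1 to 44.4 CPM to 61.7 to 88.4 (0.86 ± 0.13, adjusted p 0.00042) and Timp4 from 7.80 to 14.2 to 24.4 to 36.3 (1.28 ± 0.15, adjusted p 4.3e-05). The protease Mmp11 fell from 9.81, 4.87, 5.28 and 7.0 CPM to 1.29, 1.57, 2.1 and 2.04 (-1.94 ± 0.27, adjusted p 0.00014). Some fragments of Timp4 were shared out between genes.

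Of 8 tendon and cartilage genes 3 were lower and 0 higher. Scx, the transcription factor of tendon cells, went from 38.0, 23.6, 25.7 and 35.1 CPM to 7.61, 6.56, 6.25 and 8.89 (-2.05 ± 0.15, adjusted p 3.5e-07), below the 23.8 ± 1.47 (SD, n = 4) of unoperated muscle. Acan, a cartilage proteoglycan named after its values were seen, fell by 2.99 ± 0.67 (adjusted p 0.0051) from 0.425 to 1.97 CPM to 0.0561 to 0.222, and by 2.35 without library 2 at 30 days. Libraries 2 and 3 at 60 days lay below the floor for Acan, so the size of its fall is uncertain. Comp, a matrix protein of both tissues, fell by 0.85 (adjusted p 0.035), a call lost without library 2 or 3 at 30 days or 2, 3 or 4 at 60 days (0.0586 to 0.107). Tnmd, a marker of mature tendon cells, did not pass the test (-0.05, 0.95).

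Ion channels, metal-binding proteins and the clock held further large changes. The potassium channel Kcna5 rose from 1.06 to 1.23 CPM to 2.86 to 8.47 (2.09 ± 0.33, adjusted p 0.00038) and Kcna7 from 23.8 to 71.7 to 100.2 to 134 (1.26 ± 0.29, 0.0063). The calcium-activated potassium channel Kcnn3, a known mark of denervated muscle, fell from 67.0, 47.2, 47.2 and 59.6 CPM to 26.5, 20.4, 16.8 and 17.7 (-1.44 ± 0.16, adjusted p 1.8e-05). The metallothioneins Mt1a and Mt2A, which bind zinc, fell by 2.63 ± 0.39 (adjusted p 0.0003) and 1.79 ± 0.32 (0.0013) on the log2 scale. For Mt1a library 1 at 30 days stood at 85.5 CPM against 18.4 to 27.5 in the other 3, and without it the fall was 1.89. The clock gene Per1 rose from 29.8 to 43.9 CPM to 66.9 to 148 (1.48 ± 0.30, adjusted p 0.0031). Of 13 clock genes tested 5 were higher and 0 lower, which is 38.5% higher against 10.3% of all genes, with a median of 0.29. Npas2 (0.90, adjusted p 0.044) and Nr1d1 (0.50, 0.021) were also called. Leaving out 1 library gave 2 to 5 higher. The call of Npas2 was lost in 5 of these omissions (adjusted p 0.0535 to 0.121) and that of Nr1d1 in 4 (0.0655 to 0.0677). The labels do not give the time of day of sampling. Myc fell from 22.4 to 28.8 CPM to 10.1 to 14.2 (-1.10 ± 0.18, adjusted p 0.00061).

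Some of the largest changes lay outside these groups. Dclk1, a doublecortin-like kinase, went from 1125, 382, 377 and 879 CPM to 32.0, 20.4, 19.5 and 32.8 (-4.72 ± 0.38, adjusted p 1.3e-06). Slc51a, an organic solute transporter subunit, changed by a log2 fold of -4.34 ± 0.37, and of -4.96 without library 1 at 60 days, and the cystatin Cst7 fell by 4.12 ± 0.35. Of the rises, Tppp3, a tubulin-binding protein, went from 18.2, 53.9, 37.0 and 35.3 CPM to 58.9, 231, 340 and 151 (2.43 ± 0.41, adjusted p 0.0009). Ostn, the muscle-secreted peptide musclin, went from 0.992, 12.9, 6.56 and 2.33 to 13.4, 43.6, 44.7 and 17.4 CPM (2.34 ± 0.55, adjusted p 0.0067). Without library 2 at 30 days its log2 fold change was 3.18, and its call was lost in the fit of the 8 libraries alone. Smtnl1, a smoothelin-like protein of fast fibres, went from 31.5, 164, 101 and 107 to 204, 496, 610 and 297 CPM (1.99 ± 0.40, adjusted p 0.0026). In Tppp3, Ostn and Smtnl1 library 1 was the lowest at both times. The gamma-synuclein gene Sncg rose by 2.36 ± 0.27 (adjusted p 3.5e-05), with 202 CPM in library 1 at 60 days and 81.6 to 115 in the other 3.

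**Figure D5:**
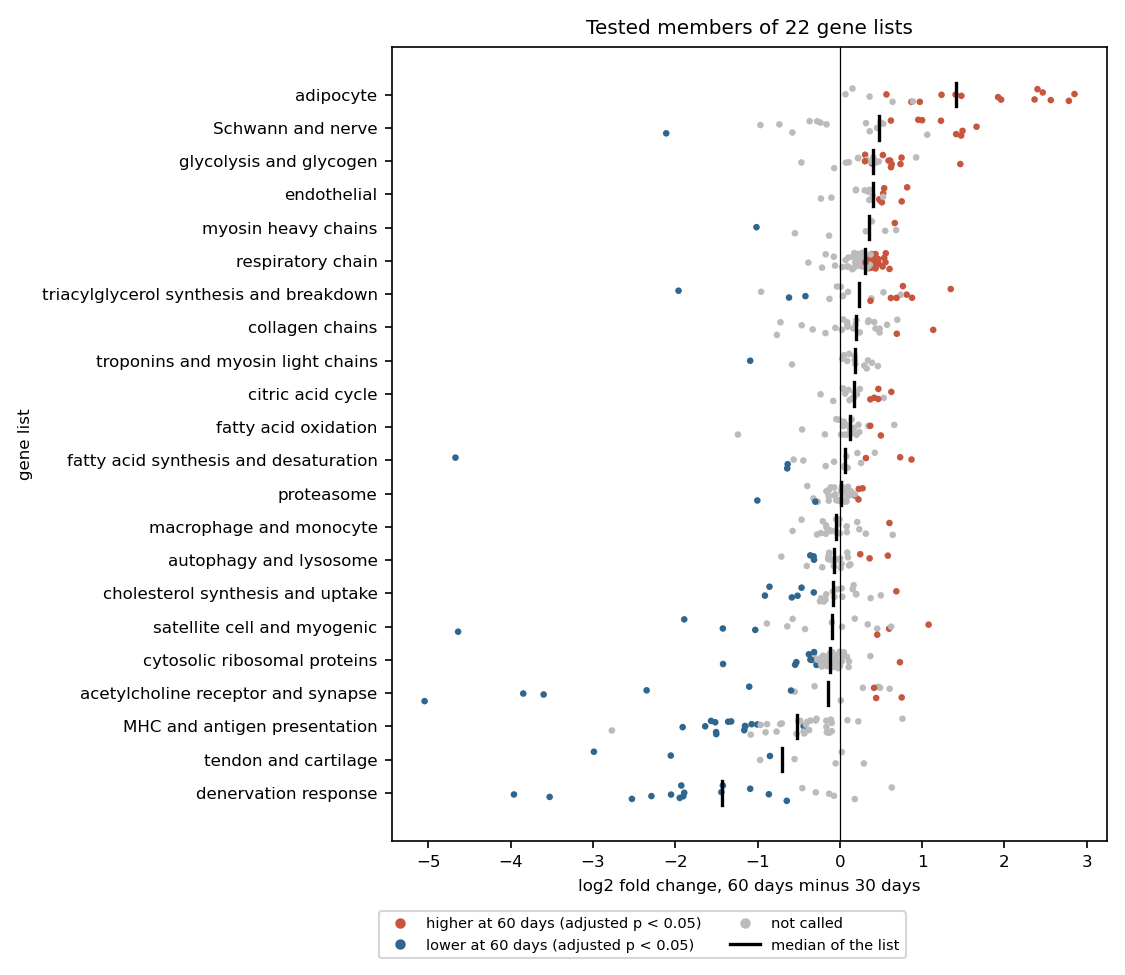
Log2 fold change, 60 days minus 30 days, of the tested members of 22 gene lists, 1 point a gene, coloured by call, with a black bar at each list's median. The adipocyte list has the highest median (1.41) and the denervation response the lowest (-1.43) of those drawn.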

How the data were processed

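RNA from supraspinatus muscle was sequenced with a polyA TruSeq kit, per the labels' protocols. The authors deposited 1 table of raw fragments per gene from Cuffdiff, whose unit is expected counts, neither depth- nor length-scaled. Per the submitters' processing notes, bcl2fastq 1.8.4, FastQC, TopHat2 2.0.9, Bowtie2 2.1.0.0, Cufflinks and Cuffdiff 2.1.1 were used with build rn5. Annotation, strand use and filters are not given in the sources used here. Fractional values occur in 233 genes, where fragments were shared between genes.

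Counts were rounded. Groups came from the labelled time. All 16 libraries entered 1 edgeR 4.0.16 quasi-likelihood model (R 4.3.3, TMM factors, filterByExpr, robust estimation, no covariate), and 60 was compared with 30 days. The common biological coefficient of variation was 0.150. An SE is the log2 fold change divided by the square root of F. Gene lists, 48 with 1155 entries (1124 found), are described by counts and medians without a test of the list. An SE includes the spread between libraries that the model estimated, and an SD is the spread between the libraries of a group. Floors cover counting error only, and PCR copies are not independent molecules. Methods were tested on simulated data. The members and lists were chosen with earlier results of these data known.

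Genes could be named by 3 rules. The first took the 15 largest called rises and falls with a mean of at least 5 CPM, groups that did not overlap and a symbol that is no accession. The second took the 3 largest called rises and falls of each list with a mean of at least 1 CPM, and the third the defining members of lists. The text describes part of the genes these rules gave, and that choice was made with their values and their stability known. Stability is therefore counted over all of them. Genes named otherwise are said to be so, and a few items are not reported here. Alternatives were RLE, upper-quartile and no factors, DESeq2 1.42.0, limma-voom (limma 3.58.1), other filters, no robust estimation, the 8 libraries alone, a replicate block, the L or R ending each title (meaning not stated), thinning, an adjusted p under 0.01 and leaving out libraries. Leaving out library 1 of both times together, and RLE and upper-quartile factors for lists, were added after seeing the data. Promoters are from RefSeq on GRCr8, another build than the table's, and served as sequence only. Of 11658 tested genes 9382 matched one by symbol.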

Additional observations from a re-analysis of the deposited data

Results flagged for a closer look

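In each group of 4 libraries, the highest or lowest value was set apart when its gap to the nearest other exceeded Dixon's 95% critical share of the group's range. Among 350 groups examined, 19 met this, where chance gives about 1 in 20.

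Library 1 at 60 days gave 8 of them. It was the highest in Acta1 (50033 CPM, others 33608 to 35070), Agpat6 (66.1, others 48.4 to 50.9), Ankrd1 (3624, others 545 to 927), Esrrg (17.5, others 6.49 to 7.46), Mdm2 (249, others 148 to 162) and Runx1 (27.9, others 6.55 to 9.31). It was the lowest in Fabp4 (143, others 243 to 263) and Rpl41 (584, others 675 to 683). Library 1 at 30 days was the highest in Mt1a (85.5 CPM, others 18.4 to 27.5), Mt2A (67.6, others 21.1 to 26.4), Myh8 (212, others 98.6 to 108) and Myod1 (272, others 135 to 155).

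Library 2 at 30 days had the largest total, 39.9 M fragments against 22.9 to 24.8 M, and the highest Cd68 (8.36 CPM, others 6.34 to 6.55) and Zfp36 (37.6, others 27.2 to 28.9). At 30 days library 3 was the lowest in Elovl3 (0.64 CPM, others 0.957 to 1.01) and library 4 in Timp4 (7.8, others 13.1 to 14.2). At 60 days library 3 was the highest in Mogat1 (3.8, others 1.24 to 1.34) and library 4 the lowest in Myh1 (14777, others 18530 to 19150).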

How the results depend on the processing

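Of the 2636 genes called, 0 changed sign under any alternative, whereas the number called depended on the fit. With the 8 libraries alone 1530 were called (667 higher, 863 lower), and at an adjusted p under 0.01 1244 (496 and 748). Library totals gave 749 higher and 2102 lower genes, 26.3% higher against 45.3%, 51.0% with RLE factors, 49.2% with upper-quartile factors and 51.6% with DESeq2. Leaving out 1 library gave 1764 to 3381 genes (754 to 1463 higher, 1010 to 1918 lower). The fewest higher genes were without replicate 1 (754) and replicate 4 (792) of 30 days, and the most were without replicate 1 of 60 days.

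Of 275 tested genes that the naming rules gave, 198 were called at an adjusted p under 0.05. In every other fit 110 of these passed that threshold, and 88 missed it in at least 1. The stricter threshold of 0.01 left 111 of the 198, and 105 met both. None of the 198 changed sign.

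With the title letter as a covariate 2668 genes were called (1184 higher, 1484 lower), among them 2338 of the 2636. The replicate block, taken from column suffixes, gave 2549 genes with 16 libraries and 1438 (664 higher, 774 lower) with 8. Same-numbered libraries of the 2 times correlated between -0.118 and 0.167 in their deviations, so the numbers only name libraries.

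Some genes that were not called changed sign when libraries were left out, either 1 at a time or library 1 of both times together. Over these fits together the range was -1.05 to 0.23 for Ankrd1, -0.21 to 0.021 for Casq1, -0.48 to 0.11 for Cd68, -0.25 to 0.017 for Cs, -0.0069 to 0.077 for Dgat1, -0.34 to 0.16 for Fbxo32, -0.34 to 0.058 for Hk2, -0.10 to 0.017 for Hmgcs1, -0.094 to 0.17 for Igf1, -0.47 to 0.062 for Myh3, -0.094 to 0.22 for Pdgfra, -0.29 to 0.22 for Tnmd and -0.25 to 0.12 for Trim63. The title letter gave 0.077 for Cd68 and 0.37 for Tnmd. Library totals gave -0.046 for Dgat1 and -0.034 for Igf1, and leaving out replicate 1 of both times gave 0.047 for Cd68. Of 48 lists, 16 had a median, all within 0.296 of 0, that changed sign under at least 1 alternative. The receptor, fatty acid synthesis, ligase and proteasome lists were among them. In some the median was larger in size than the SD of the list's mean log2 level between libraries of a time, pooled over both times. These were calcium handling (-0.0051 without replicate 1 of both times), satellite cell and myogenic genes (0.015 without replicate 2 of 60 days) and antioxidant genes (-0.021 with library totals). Leaving out 1 library gave 0.11 to 0.33 for calcium handling and -0.31 to 0.015 for satellite cell and myogenic genes. The cause was not tested.

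With 4 libraries a time and totals of 17.2 to 39.9 M, levels under 0.175 CPM could not be told from 0 in the smallest library. Genes listed at 0 throughout can be failed estimates.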
